A study of Caenorhabditis elegans with 12 samples.

Results

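Ribosome footprints were examined for 7 genes whose products are core proteins of the germline granules of Caenorhabditis elegans: pgl-1, pgl-3, glh-1, glh-2, glh-4, deps-1 and car-1. They were taken by gene name, and all 7 were found among the 46711 gene entries that both count tables hold. The study used ribosome profiling, in which the short mRNA stretches covered by ribosomes are sequenced, on whole mid-L4 larvae, kept at 20 °C and harvested 45 h after feeding began. There were 4 groups of 3 libraries, each lettered A to C. The mutant larvae of let7_U13A were lin-41(tn1541ma480);let-7(ma432) in genotype, which the labels describe as a mutant without the downstream effects of lin-41, and those of their control, control_for_U13A, were lin-41(tn1541). The larvae of let7_U18A were maIs105;let-7(ma435), and those of their control, control_for_U18A, were maIs105. let-7 is a microRNA gene that times larval development and represses lin-41. Both the let-7 and the lin-41 allele differ between let7_U13A and its control, and their effects cannot be told apart. Nothing in the labels says that the lettered libraries came from separate cultures, so p-values measure the spread between these libraries.

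P granules are RNA and protein condensates that sit on the outer face of germ cell nuclei, where newly exported mRNAs meet the small-RNA pathways of the germline. PGL proteins form their scaffold, the GLH proteins are Vasa-like DEAD-box RNA helicases, and DEPS-1 promotes their assembly. CAR-1, an RNA-binding protein of the LSM14 family, is found in P granules and in other germline mRNA-protein particles, together with the helicase CGH-1. At the L4 stage the germline is expanding, sperm are being made and oocyte formation follows.

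The larvae were sequenced to between 8405704 and 44950649 counted reads per library. Depth moved with genotype, since let7_U13A libraries were all deeper, and let7_U18A libraries all shallower, than those of their own controls. The members had at least 1236 counts in each of the 12 libraries, so none was limited by a floor. Germ cell markers outside the granules, a list of 15 genes such as gld-1 and him-3, were above 0 in every library as well. The name only sets this list apart from the granule lists, and where its proteins are found was not examined. Whole larvae were used, so fewer germ cells and less RNA per germ cell cannot be told apart, and a footprint count rises with mRNA amount as well as with translation. Levels are given as CPM (counts per 1000000 counts) after TMM scaling, which corrects library sizes for composition. Differences were called at an adjusted p under 0.05.

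Footprint density, the CPM per kilobase of coding sequence, spread widely among the members. car-1 was the densest, with a mean of 1408 CPM per kb over the 12 libraries. The helicase gene glh-1 followed with 437 and the scaffold gene pgl-1 with 251 CPM per kb. The other members lay lower, with 107 CPM per kb for glh-2, 89.2 for deps-1, 84.3 for pgl-3 and 66.1 for glh-4. The ranges of glh-2, deps-1 and pgl-3 over the libraries overlapped, whereas car-1, glh-1 and pgl-1 were each apart from the next gene down. These ranges pool the strains and do not compare genes within a library, and the order was not tested. Within the PGL and GLH families a single gene held most of the density. The near relatives that are not members were sparser, with 19.4 CPM per kb for glh-3 and 19.3 for pgl-2. The members together took 0.397% ± 0.0435 of all counts in let7_U13A and 0.441% ± 0.0376 in control_for_U13A (SD, n = 3 each). They took 0.381% ± 0.00924 in let7_U18A and 0.343% ± 0.0210 in control_for_U18A (SD, n = 3 each).

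**Figure D1:**
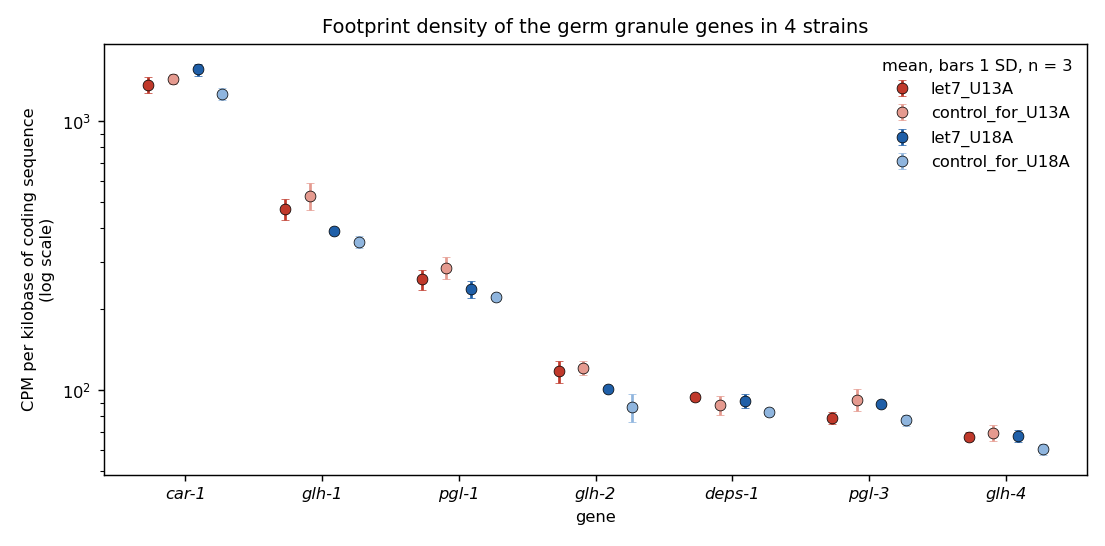
Footprint density of the 7 members in the 4 strains. The y axis is the mean CPM per kilobase of coding sequence on a log scale, points are group means and bars are 1 SD (n = 3). car-1, at 1408 CPM per kb over all libraries, stands above the other genes, and glh-4, at 66.1, is the lowest.

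The members are not neighbours in the genome. In WBcel235, with the Ensembl release 115 annotation, pgl-1 (WBGene00003992) spans IV:6974441-6977318 on the minus strand and has 9 exons. pgl-3 (WBGene00003994) spans V:4755979-4758587 on the plus strand and has 8 exons. The other genes are on the plus strand of chromosome I, with deps-1 (WBGene00022034) at 506473-509056, glh-4 (WBGene00001601) at 3727027-3731179, glh-2 (WBGene00001599) at 6513928-6517507, glh-1 (WBGene00001598) at 6854478-6857536 and car-1 (WBGene00012484) at 12904470-12906040. Their longest coding sequences run from 1020 bases in car-1 to 3468 bases in glh-4. The exons of deps-1 overlap Y65B4BL.7 on the other strand, and the use of strand in counting is not given in the sources used here. glh-1 and glh-2 are closely related in sequence, and how reads that match both were counted is not given in the sources used here.

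In the U13A pair no member was called different. The changes of the 7 genes ran from -0.23 for pgl-3 to 0.08 for deps-1 on the log2 scale, with a median of -0.08, against -0.0037 over all 12874 genes tested. edgeR's quasi-likelihood test called 5.64% of those genes. Of all genes, 49.3% had a change above 0, against 1 of the 7 members. The test called 0 of the 7 members, 0 passed an unadjusted p under 0.05, and DESeq2 also called 0. Of the 12874 genes tested, 2359 passed an unadjusted p under 0.05 in edgeR.

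The scaffold gene pgl-3 came nearest to a difference in this pair. It had 172.9, 164.7 and 155.6 CPM in let7_U13A, against 178.4, 212.3 and 184.8 CPM in control_for_U13A. All 3 mutant libraries lay below all 3 controls, with control library B the highest. Its log2 fold change was -0.23 ± 0.11 (SE), with a 95% interval of -0.47 to 0.0024 (edgeR, adjusted p = 0.279). It was the 1 member of 7 without overlap between the groups, where 10.9% of all genes tested were lower without overlap. The other scaffold gene, pgl-1, had 619.5, 635.2 and 539.4 CPM in let7_U13A, against 599.0, 725.5 and 659.2 CPM in control_for_U13A. The groups overlapped, since library A of the control lay within the range of the mutant. Its log2 fold change was -0.15 ± 0.13 (SE; edgeR, adjusted p = 0.602).

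The GLH helicase genes did not separate the U13A pair either. glh-1, the densest of them in footprints, had 1051, 1186 and 1004 CPM in let7_U13A, against 1101, 1363 and 1161 CPM in control_for_U13A. Library B was the highest of each group, and the groups overlapped. glh-1 changed by -0.17 ± 0.13 (log2, SE; edgeR, adjusted p = 0.580). glh-2 had 350.1, 372.0 and 308.3 CPM in let7_U13A, against 329.7, 360.3 and 370.4 CPM in control_for_U13A. The mutant held both the highest and the lowest of these libraries. The log2 fold change of glh-2 was -0.05 ± 0.12 (SE; edgeR, adjusted p = 0.892). glh-4, which has the longest coding sequence of the set, had 226.3, 243.8 and 229.9 CPM in let7_U13A, against 221.4, 249.9 and 249.9 CPM in control_for_U13A. The mutant libraries all lay inside the range of the controls, and the log2 fold change was -0.05 ± 0.11 (SE; edgeR, adjusted p = 0.874).

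deps-1, whose protein promotes P granule assembly, had 170.3, 180.6 and 172.9 CPM in let7_U13A, against 148.7, 174.3 and 168.6 CPM in control_for_U13A. Control library A was the lowest and the rest were close together, so the groups overlapped. Its log2 fold change was 0.08 ± 0.10 (SE), the single positive value of the set in this pair (edgeR, adjusted p = 0.764). car-1 had 1296, 1485 and 1398 CPM in let7_U13A, against 1468, 1531 and 1400 CPM in control_for_U13A. Here too the groups overlapped, and the change was -0.08 ± 0.13 (log2, SE; edgeR, adjusted p = 0.819). The 95% intervals of all 7 genes reached no lower than -0.47 and no higher than 0.31.

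**Figure D2:**
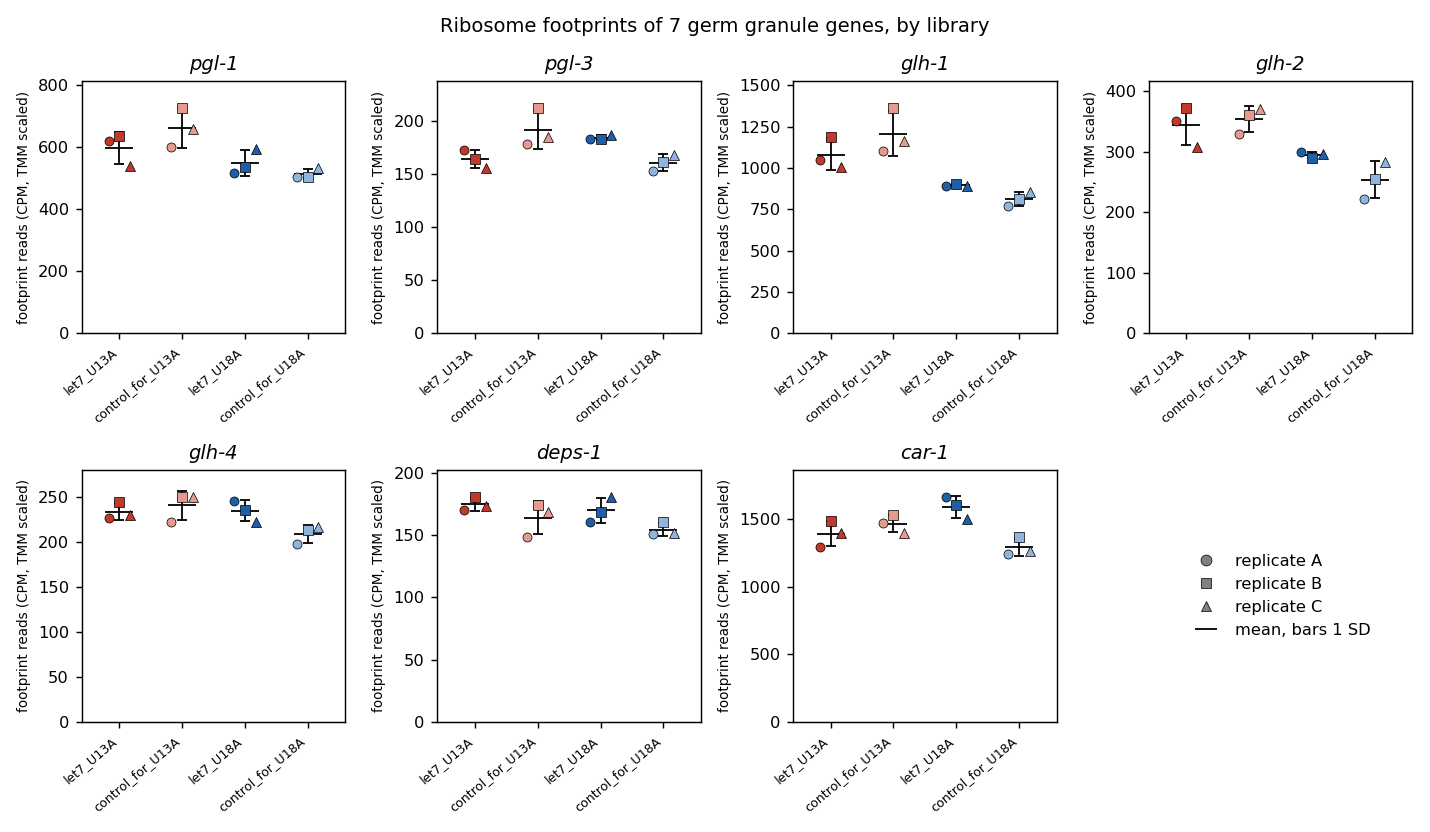
Footprint level of each member in every library. The y axis is TMM-scaled CPM from 0, each point is 1 library marked by its replicate letter, and the line and bars are the mean and 1 SD of a group (n = 3). The let7_U18A points of car-1, between 1504 and 1665 CPM, lie above all 3 control_for_U18A points, and the let7_U13A points overlap those of their control for every member but pgl-3.

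In the U18A pair all 7 members had positive changes and car-1 alone was called. The log2 fold changes ran from 0.09 for pgl-1 to 0.29 for car-1, with a median of 0.16, against -0.0046 over the 13614 genes tested. edgeR called 10.9% of all genes tested in this pair, 4.11% as higher and 6.75% as lower. Above 0 were 49.1% of all genes. At an unadjusted p under 0.05 in edgeR there were 4 members, and 3112 of the 13614 genes tested. DESeq2 called 1 member. The libraries of a group were less spread in this pair. edgeR put the coefficient of variation between them, common to all genes, at 8.51%, against 12.5% in the U13A pair. A change of a given size was thus easier to call here, and the numbers of calls do not compare the 2 mutants.

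car-1 had 1665, 1607 and 1504 CPM in let7_U18A, against 1244, 1370 and 1265 CPM in control_for_U18A. The lowest mutant library stood above the highest control. The mean was 1592 ± 81.5 CPM in let7_U18A and 1293 ± 67.6 CPM in control_for_U18A (SD, n = 3 each), and the fold change was 1.23. On the log2 scale it rose by 0.29 ± 0.08 (SE), with a 95% interval of 0.13 to 0.46 (edgeR, adjusted p = 0.0227). With the libraries thinned to equal depth car-1 kept its call, at 0.28 (log2; edgeR, adjusted p = 0.0277). Of the 6 edgeR fits that left out 1 library, 4 lost the call: those without let7_U18A A (adjusted p = 0.0550), let7_U18A B (adjusted p = 0.103), control_for_U18A A (adjusted p = 0.0999) and control_for_U18A C (adjusted p = 0.0552). The log2 fold change lay between 0.26 and 0.34 over those 6 fits.

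Among the scaffold genes, pgl-3 had 183.2, 183.0 and 187.0 CPM in let7_U18A, against 152.6, 161.5 and 168.3 CPM in control_for_U18A. The mutant libraries were tightly grouped and lay above every control. Its change was 0.19 ± 0.07 (log2, SE) and was not called (edgeR, adjusted p = 0.0992). pgl-1 had 515.6, 536.0 and 594.6 CPM in let7_U18A, against 502.7, 504.2 and 532.2 CPM in control_for_U18A. Its groups overlapped, with mutant library C set apart upward. The change of pgl-1 was 0.09 ± 0.08 (log2, SE; edgeR, adjusted p = 0.554).

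The helicase genes were each higher in all mutant libraries of the U18A pair, and none was called. glh-1 had 893.2, 902.5 and 893.7 CPM in let7_U18A, against 773.0, 812.6 and 855.8 CPM in control_for_U18A. The mutant libraries were close together and the controls were spread more widely. The change of glh-1 was 0.13 ± 0.07 (log2, SE; edgeR, adjusted p = 0.297). glh-2 had 298.7, 289.0 and 296.4 CPM in let7_U18A, against 222.1, 255.3 and 282.9 CPM in control_for_U18A. Control C approached the mutant range and control A lay far below it. The change of glh-2 was 0.21 ± 0.09 (log2, SE; edgeR, adjusted p = 0.153), and without control_for_U18A C it was 0.29 (adjusted p = 0.0396), which would make it a call. glh-4 had 245.2, 235.8 and 221.9 CPM in let7_U18A, against 197.3, 213.4 and 216.0 CPM in control_for_U18A. The lowest mutant library was just above the highest control, and the change was 0.16 ± 0.07 (log2, SE; edgeR, adjusted p = 0.212).

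deps-1 had 160.3, 168.6 and 180.6 CPM in let7_U18A, against 150.4, 160.6 and 151.8 CPM in control_for_U18A. The groups met, since mutant A and control B were nearly equal, and the change was 0.13 ± 0.07 (log2, SE; edgeR, adjusted p = 0.307). In all, 5 of the 7 members were higher without overlap in this pair, as were 12.8% of the 13603 genes tested that both tables hold. With 3 libraries against 3 an exact permutation test of 1 gene cannot go below p = 0.1, so the fit across all genes was used. The summed level of the 7 members was 3921 ± 41.5 CPM in let7_U18A and 3398 ± 135 CPM in control_for_U18A (SD, n = 3 each). In this sum car-1, the member with the most reads and the largest rise, weighs more than any other.

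**Figure D3:**
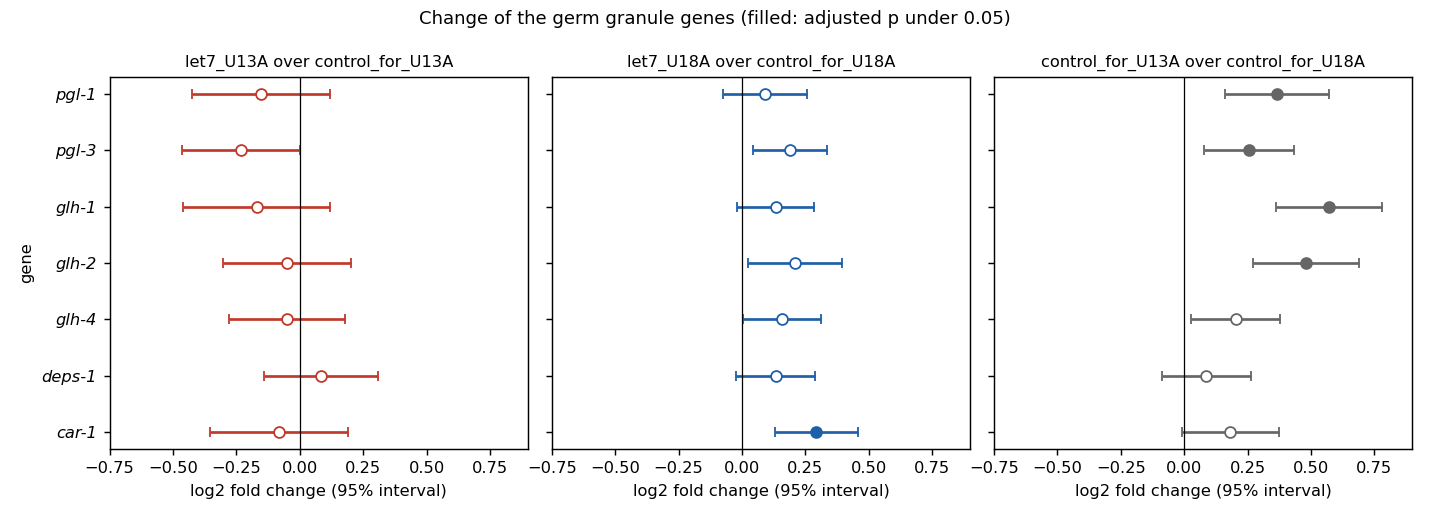
Log2 fold change of each member in 3 comparisons, with 95% intervals from edgeR; filled points have an adjusted p under 0.05. In the U18A pair all 7 points lie above 0 and car-1 is filled, in the U13A pair none is filled, and between the control strains pgl-1, pgl-3, glh-1 and glh-2 are filled.

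The change in let7_U13A minus the change in let7_U18A was tested directly in 1 fit of 4 group means. Both control groups enter this contrast, so a gap between the control strains counts in it with the opposite sign. The summed level of the members averaged 3987 CPM in let7_U13A and 3921 CPM in let7_U18A, against 4286 CPM in control_for_U13A and 3398 CPM in control_for_U18A. The difference of the changes was below 0 for all 7 members, with a median of -0.26, against -0.0056 over the 13597 genes tested, of which 49.2% were above 0. The germ cell markers outside the granules shared this sign, with 15 of 15 below 0, a median of -0.23 and 0 called. edgeR called 5.58% of all genes tested, 1.53% in the negative direction, and 1 member, pgl-3. For pgl-3 the difference was -0.42 ± 0.12 (log2, SE), with a 95% interval of -0.67 to -0.17 (edgeR, adjusted p = 0.0450). Of the 12 fits that left out 1 library, 11 lost this call and only the fit without control_for_U13A A kept it, with adjusted p-values of 0.0292 to 0.126 and log2 values of -0.47 to -0.34 over the 12. The settings that also lost it were total counts alone as scaling (adjusted p = 0.116), no filter on low counts (adjusted p = 0.0769), no robust estimation (adjusted p = 0.0522), libraries thinned to equal depth (adjusted p = 0.0543) and a block for the replicate letter. The difference for car-1 was -0.37 ± 0.13 (log2, SE) and was not called (edgeR, adjusted p = 0.109), although DESeq2 called it (adjusted p = 0.0242). The remaining members had differences of -0.30 for glh-1, -0.26 for glh-2, -0.24 for pgl-1, -0.21 for glh-4 and -0.05 for deps-1, none of them called (edgeR, adjusted p from 0.274 to 0.898).

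The control strains differed from each other in 4 of the 7 members, the scaffold genes and the pair of close helicase genes. Here control_for_U13A, with the lin-41(tn1541) allele, was set against control_for_U18A, with maIs105. The same control libraries enter the difference of the changes above, so these results are not separate from it. edgeR called 25.0% of the 13597 genes tested, 11.6% as higher in control_for_U13A, where 49.6% of all genes and 7 of the 7 members were above 0 in log2 fold change. glh-1 averaged 1209 ± 137 CPM in control_for_U13A and 814 ± 41.4 CPM in control_for_U18A (SD, n = 3 each). Every library of control_for_U13A was above every library of control_for_U18A. The fold change of glh-1 was 1.48, or 0.57 ± 0.10 on the log2 scale (SE; edgeR, adjusted p = 4.22e-04). Its relative glh-2 rose by 0.48 (log2; edgeR, adjusted p = 0.00187), and pgl-1 rose by 0.37 (log2; edgeR, adjusted p = 0.0107). pgl-3 rose by 0.25 (log2; edgeR, adjusted p = 0.0337), a call that was lost without control_for_U13A B (log2 0.18, adjusted p = 0.154), control_for_U18A A (adjusted p = 0.138), control_for_U18A B (adjusted p = 0.0860) or let7_U18A B (adjusted p = 0.0505), and with total counts alone as scaling (adjusted p = 0.0545) or no filter on low counts (adjusted p = 0.0609). The members not called in this edgeR fit had log2 fold changes of 0.20 for glh-4 (adjusted p = 0.0836), 0.18 for car-1 (adjusted p = 0.158) and 0.09 for deps-1 (adjusted p = 0.466). glh-4 was called by DESeq2 (adjusted p = 0.0458) and by edgeR without control_for_U13A A (adjusted p = 0.0418). Without overlap, 6 of the 7 members were higher, against 19.3% of all genes tested. The strains were also deposited in separate tables, and strain, table and any difference in handling cannot be told apart.

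Ratios within a library, which do not depend on its scaling, were used to set the members against each other. The ratio of glh-1 to glh-4 counts was 4.62 ± 0.249 in let7_U13A and 5.03 ± 0.406 in control_for_U13A (SD, n = 3 each). In the other pair it was 3.83 ± 0.192 in let7_U18A and 3.90 ± 0.0792 in control_for_U18A (SD, n = 3 each). All 6 libraries of the U13A pair were above all 6 of the U18A pair. The ratio of car-1 to glh-1 was 1.29 in let7_U13A and 1.22 in control_for_U13A, and it was 1.78 in let7_U18A and 1.59 in control_for_U18A. No test was made of these ratios. Across the 12 libraries, the highest level of glh-1 was 1.76 times its lowest, and for deps-1 the figure was 1.21, the widest and narrowest of the set.

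The members were next read against the germ cell markers outside the granules, to see whether the 7 members moved beyond those 15 genes. Of those 15 markers edgeR called 0 in the U13A pair (3 at an unadjusted p under 0.05, 0 by DESeq2) and 0 in the U18A pair (1 at an unadjusted p under 0.05, 0 by DESeq2). Their median log2 fold change was -0.13 for let7_U13A and 0.06 for let7_U18A, and between the control strains 5 were called higher. The summed counts of the 7 members were 2.72 ± 0.0714 times those of the markers in let7_U13A and 2.72 ± 0.122 times in control_for_U13A (SD, n = 3 each; exact permutation, two-sided p = 1). They were 2.74 ± 0.202 times in let7_U18A and 2.50 ± 0.0643 times in control_for_U18A (SD, n = 3 each). Each let7_U18A library lay above each control in this ratio, which gave the smallest p the design allows, 0.1 by the two-sided exact permutation test. The difference in this ratio was 0.24, and it was 0.12 without let7_U18A A and 0.31 without let7_U18A C. Summed counts give car-1 the most weight. With genes weighted equally, the mean log2 CPM of the members minus that of the markers was higher by 0.116 in let7_U18A (exact permutation, two-sided p = 0.1).

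Oocyte and sperm markers were examined as other cell types of the gonad. Of 13 oocyte markers, 8 were called higher and 0 lower in let7_U13A (median log2 fold change 0.69), and 10 were called higher and 0 lower in let7_U18A (median 0.83). The oocyte maturation regulator oma-2 rose by 1.95 in let7_U13A and by 1.05 in let7_U18A (log2; edgeR, adjusted p = 0.00642 and 7.60e-04). The eggshell gene cbd-1 rose by 1.65 in let7_U13A and by 1.32 in let7_U18A (log2; edgeR, adjusted p = 0.0180 and 1.15e-04); the call in let7_U13A was lost without let7_U13A C (adjusted p = 0.0674) or control_for_U13A B (adjusted p = 0.0745), and with no filter on low counts (adjusted p = 0.0550). egg-1, an oocyte surface gene needed for fertilization that overlaps B0244.9, rose by 1.46 in let7_U13A and by 1.19 in let7_U18A (log2; edgeR, adjusted p = 0.00113 and 3.09e-04). The summed level of the oocyte list was 780 to 1128 CPM in let7_U13A and 605 to 1002 CPM in control_for_U13A, ranges that overlap. It was 1544 to 1815 CPM in let7_U18A and 1021 to 1156 CPM in control_for_U18A, without overlap. No oocyte marker was at 0 in any library. The oocyte list and car-1 both rose in the U18A pair. In the U13A pair the oocyte median rose while car-1 changed by -0.08 (log2, not called). Between the control strains 8 of 13 oocyte markers were called lower in control_for_U13A, with a median of -0.96, while 4 members were higher there. car-1 was not called in that comparison, at 0.18 (log2). Any part of the oocyte list in the change of car-1 was not tested.

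Of the 12 sperm markers edgeR called 0 in the U13A pair (1 at an unadjusted p under 0.05, 0 by DESeq2) and 0 in the U18A pair (2 at an unadjusted p under 0.05, 0 by DESeq2). Their summed level was 1480 to 1903 CPM in let7_U13A and 1495 to 1939 CPM in control_for_U13A. It was 1676 to 1936 CPM in let7_U18A and 1852 to 2136 CPM in control_for_U18A. Both pairs overlapped, and no sperm marker was at 0 in any library.

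**Figure D4:**
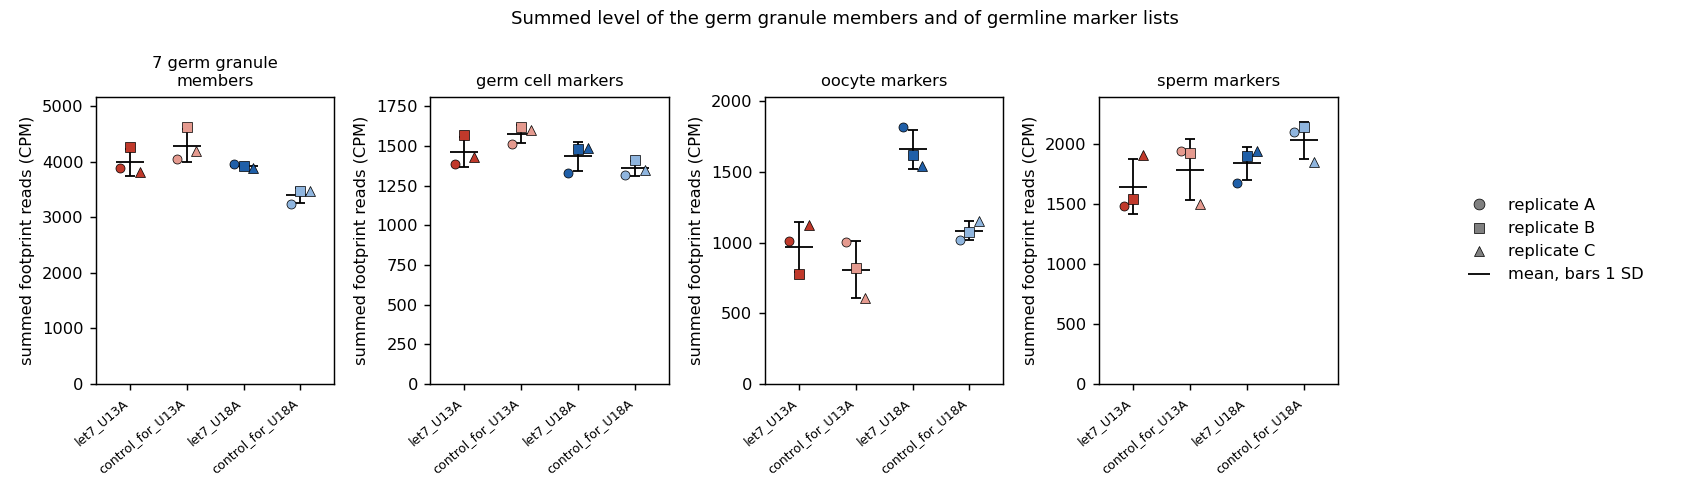
Summed CPM of the 7 members and of 3 germline marker lists in every library. Each point is 1 library marked by its replicate letter, and lines and bars are the mean and 1 SD (n = 3). The oocyte sums of let7_U18A, 1544 to 1815 CPM, lie above all other libraries, while the sums of germ cell markers overlap within both pairs.

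Other P granule components were mostly not called. Of 13 tested, edgeR called 2 higher and 0 lower in the U13A pair, and 2 higher and 0 lower in the U18A pair, with medians of -0.04 and 0.12 on the log2 scale. The meg genes among them had few reads. meg-1, which encodes a disordered protein needed for the segregation of embryonic P granules, had 11, 30 and 22 counts in let7_U13A, against 1, 5 and 1 counts in control_for_U13A. The groups did not overlap, and its log2 fold change was 2.33 ± 0.50 (SE; edgeR, adjusted p = 0.0160), or 1.85 without control_for_U13A C, where the call was lost (adjusted p = 0.0707). Its relative meg-4, listed in the tables as C36C9.1, had 25, 49 and 33 counts in let7_U13A, against 6, 9 and 11 counts in control_for_U13A. It rose by 1.26 ± 0.28 (log2, SE; edgeR, adjusted p = 0.0182), which DESeq2 did not call (adjusted p = 0.0566), nor edgeR without let7_U13A A (adjusted p = 0.0605), control_for_U13A B (adjusted p = 0.0772) or control_for_U13A C (adjusted p = 0.0501). In the U18A pair meg-4 rose by 0.97 (log2; edgeR, adjusted p = 0.0425) and gls-1, a germline survival gene whose protein is found in P granules, by 0.24 (log2; edgeR, adjusted p = 0.0382). The gls-1 call was lost in all 6 fits that left out 1 library (adjusted p from 0.0523 to 0.123), and the meg-4 call in 4 of them, those without replicate A or B of either group (adjusted p from 0.0759 to 0.197). Thinned libraries also ended both calls (adjusted p = 0.133 for meg-4 and 0.0996 for gls-1), and gls-1 was lost with total counts alone, no filter or all 12 libraries in 1 fit (adjusted p from 0.0507 to 0.166). meg-1 gained a call in this pair without control_for_U18A C, at 1.30 (log2; edgeR, adjusted p = 0.0111). The near relatives of the members, pgl-2 and glh-3, were called in neither pair, and glh-3 had a log2 fold change of 0.27 in the U18A pair (edgeR, adjusted p = 0.0599).

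The neighbouring germ granules showed no change called by edgeR in either mutant pair. Of 13 Z granule and mutator focus components, edgeR called 0 in the U13A pair (1 at an unadjusted p under 0.05, 0 by DESeq2) and 0 in the U18A pair (3 at an unadjusted p under 0.05, 1 by DESeq2). Between the control strains edgeR called 2 of the 13 higher in control_for_U13A and 0 lower. The 6 other DEAD-box helicases of the Vasa branch and its kin gave 0 calls in the U13A pair (0 at an unadjusted p under 0.05, 0 by DESeq2) and 0 in the U18A pair (3 at an unadjusted p under 0.05, 0 by DESeq2).

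Among genes for proteins that share particles with CAR-1, several rose in the U18A pair. Of 14 partners and decapping factors, edgeR called 4 higher and 0 lower there, with a median log2 fold change of 0.09; in the U13A pair it called 1 higher and 0 lower, with a median of 0.0017. The Y-box RNA-binding protein gene cey-3 had 800.1, 725.8 and 662.0 CPM in let7_U18A, against 534.6, 612.2 and 584.7 CPM in control_for_U18A. All mutant libraries were above the controls, and it rose by 0.33 ± 0.08 (log2, SE; edgeR, adjusted p = 0.0217). That call was lost without let7_U18A A, let7_U18A B or control_for_U18A A (adjusted p from 0.0712 to 0.105). ifet-1, which encodes an eIF4E-binding translational repressor, had 515.0, 546.2 and 528.0 CPM in let7_U18A, against 399.2, 445.5 and 440.2 CPM in control_for_U18A. The mutant libraries were again all above the controls. It rose by 0.30 ± 0.07 (log2, SE; edgeR, adjusted p = 0.0160). This call was lost without let7_U18A B (adjusted p = 0.0947) or control_for_U18A A (adjusted p = 0.0777), and with total counts alone (adjusted p = 0.0506). Another Y-box gene, cey-2, rose by 0.27 on the log2 scale (edgeR, adjusted p = 0.0444), a call kept only without control_for_U18A B among the 6 fits that left out 1 library. It was also lost with total counts alone, at least 10 counts in every library, thinned libraries or all 12 libraries in 1 fit (adjusted p from 0.0555 to 0.109). The decapping enhancer gene edc-3, the last of the 4, was called at an adjusted p = 0.0495 in edgeR, with a log2 fold change of 0.24. cgh-1, the helicase that binds CAR-1, had a log2 fold change of 0.23 and was not called (edgeR, adjusted p = 0.113). patr-1, another decapping factor gene, was the call of the U13A pair, at 27.4, 25.7 and 26.9 CPM in let7_U13A, against 17.7, 20.9 and 19.5 CPM in control_for_U13A. It rose by 0.45 (log2; edgeR, adjusted p = 0.0337), a call that DESeq2 did not make (adjusted p = 0.0531), that was lost with total counts alone (adjusted p = 0.137) or thinned libraries (adjusted p = 0.0606), and that was lost whichever of the 6 libraries was removed (adjusted p from 0.0607 to 0.134).

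Factors that clear PGL granules from somatic cells by autophagy, and so keep P granule proteins confined to the germline, had calls in both directions. Of 8 tested, edgeR called 0 higher and 2 lower in the U13A pair, and 1 higher and 1 lower in the U18A pair. lgg-1, the worm Atg8 homologue, had 213.5, 214.8 and 246.7 CPM in let7_U13A, against 407.8, 365.8 and 356.6 CPM in control_for_U13A. All mutant libraries were far below the controls, and lgg-1 fell by 0.75 ± 0.12 (SE) on the log2 scale (edgeR, adjusted p = 0.00208). Between the control strains lgg-1 was higher in control_for_U13A, by 0.61 to 0.74 (log2) over 12 edgeR fits that left out 1 library (adjusted p at most 8.08e-04). The summed level of this list averaged 451 CPM in let7_U13A and 642 CPM in control_for_U13A. It averaged 497 CPM in let7_U18A and 467 CPM in control_for_U18A, so control_for_U13A was the group set apart. sqst-1, the p62 receptor gene, fell by 0.47 in let7_U13A on the log2 scale (edgeR, adjusted p = 0.0325) and rose by 0.27 in let7_U18A (edgeR, adjusted p = 0.0379). The fall was lost without let7_U13A A or B or control_for_U13A A or B (adjusted p from 0.0794 to 0.194), and the rise without let7_U18A B or any control_for_U18A library (adjusted p from 0.0617 to 0.203), and with total counts alone (adjusted p = 0.104) or all 12 libraries in 1 fit (adjusted p = 0.0911). The change in let7_U13A minus that in let7_U18A was -0.89 for lgg-1 (log2; edgeR, adjusted p = 7.57e-04) and -0.74 for sqst-1 (log2; edgeR, adjusted p = 0.00289). epg-2, an adaptor gene that overlaps tpxl-1 on the other strand, fell by 0.42 in let7_U18A on the log2 scale (edgeR, adjusted p = 0.0225), a call kept without let7_U18A B or control_for_U18A C and lost without any other library (adjusted p from 0.0519 to 0.0997) or with thinned libraries (adjusted p = 0.0568). sepa-1, the receptor that binds PGL-3, had 0 to 4 counts per library and was not tested.

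Repressors that keep germ granule genes low in somatic cells were largely without calls. Of 12, edgeR called 0 in the U13A pair (0 at an unadjusted p under 0.05, 0 by DESeq2) and 1 higher in the U18A pair. That gene was lin-15B, which rose by 0.41 on the log2 scale (edgeR, adjusted p = 0.00753) and overlaps lin-15A on the same strand. Markers of body wall muscle and neurons had 0 calls in the U13A pair (0 and 1 at an unadjusted p under 0.05, 0 and 0 by DESeq2) and 0 in the U18A pair (0 and 1 at an unadjusted p under 0.05, 0 and 0 by DESeq2). In the U18A pair the sheath gap junction gene inx-8 rose by 0.54 (edgeR, adjusted p = 0.00213) and the intestinal filament gene ifb-2 by 0.37 (edgeR, adjusted p = 0.00290), both on the log2 scale, and gonadal sheath and intestine markers had no other call in either pair.

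The pattern of each member over the 12 libraries was compared with that of 7400 genes by the mean absolute difference of centred log2 CPM, a distance that is 0 for an identical pattern. Nearest to pgl-1 were F55F10.1 (0.026), W09G3.7 and D2045.2. Nearest to pgl-3 were snrp-200 (0.056), asc-1 and cec-7. None of these is a member. The helicase gene glh-1 was nearest to lsm-4 (0.044), F42G9.1 and nono-1, glh-2 to exos-7 (0.038), C27B7.5 and riok-2, and glh-4 to smg-2 (0.039), rpt-5 and arp-1. deps-1 was nearest to Y105E8A.25 (0.039), eif-3.E and drp-1. car-1 was nearest to cey-2 (0.051), rga-4 and wago-4, of which cey-2 belongs to the CAR-1 partners above and wago-4 to the Z granule components. No member was among the nearest genes of another. The nearest member to glh-1 was its relative glh-2, at rank 46 and a distance of 0.074, and from pgl-3 the nearest member was glh-4, at rank 45. For the rest the nearest member ranked lower, at 70 for glh-2, 103 for car-1, 360 for glh-4, 487 for deps-1 and 594 for pgl-1. The members farthest apart were glh-1 and car-1, at 0.21. All these distances share the same libraries and are given as a description.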

How the data were processed

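Counts of ribosome footprint reads per gene were deposited by the authors as raw whole numbers in 2 tables, each with 1 mutant and its control, and all 12 columns were used. Per the submitters' processing notes, cutadapt 1.9, Bowtie2 2.3.4.3 and the WBcel235 build were used. The counting tool, its annotation, its use of strand and its handling of reads with several matches are not given in the sources used here. The members and gene lists were chosen with earlier results of these data known.

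Each pair was fitted over all its genes in edgeR 4.0.16 (R 4.3.3, limma 3.58.1) with filterByExpr, TMM scaling and a robust quasi-likelihood test, and p-values were Benjamini-Hochberg adjusted over all genes tested. The difference of the changes and the control strains were contrasts in 1 fit of the 12 libraries. CPM used TMM over all 12 libraries, with a prior count of 2 where logged, and a 95% interval is the fold change ± t times its SE. Density used the longest coding sequence in Ensembl release 115. Patterns were compared among genes with a mean of at least 10 CPM.

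The text names all members, up to 3 called genes with the largest rise and 3 with the largest fall of each list in each mutant pair, close relatives and overlapping genes of the members, and 3 genes nearest to each member. edc-3, cgh-1 and sepa-1 fall outside that rule and were named after their values were seen. Of 135 list genes, 124 matched by symbol and 9 by locus name, while meg-3 and opt-2 were not matched. The fits were tested on simulated counts.

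Other settings tried were scaling by upper quartiles, by the median of ratios or by total counts alone; no filter or a minimum of 10 counts in every library; a block for the replicate letter; no robust estimation; thinning to equal depth; all 12 libraries in 1 fit; leaving out each library; and DESeq2 1.42.0. Between libraries of 1 group the chi-square of the counts was 5.47 to 36.7 times its degrees of freedom, above counting error, so each library was taken as 1 replicate.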

Additional observations from a re-analysis of the deposited data

Results flagged for a closer look

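These results stood out because the change in let7_U13A minus the change in let7_U18A, tested directly in edgeR, was called. Both control groups enter this contrast, and a gap between them counts in it with the opposite sign. For the scaffold gene pgl-3 the difference was -0.421 on the log2 scale (edgeR, adjusted p = 0.0450), lower in 3 of 3 let7_U13A libraries and higher in 3 of 3 let7_U18A libraries than in any library of their own control. The pgl-3 call was lost in 11 of 12 fits without 1 library (adjusted p from 0.0508 to 0.126). For the decapping factor gene patr-1 it was 0.526 (log2; edgeR, adjusted p = 0.0222). The patr-1 call was lost with total counts alone (adjusted p = 0.0699) and in 5 of 12 fits without 1 library, those without let7_U13A A, control_for_U13A A, let7_U18A B, control_for_U18A A or control_for_U18A C (adjusted p from 0.0522 to 0.0711). For lgg-1, the Atg8 homologue, it was -0.886 (log2; edgeR, adjusted p = 7.57e-04). For sqst-1, the p62 receptor gene, it was -0.739 (log2; edgeR, adjusted p = 0.00289). For the intestinal filament gene ifb-2 it was -0.542 (log2; edgeR, adjusted p = 0.00687). lgg-1 was also higher in control_for_U13A than in control_for_U18A, as given above. The causes were not tested.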

How the results depend on the processing

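The letters A to C did not pair the libraries in the U13A pair, where the correlations of same-letter deviations were -0.06, 0.02 and -0.61. Across letters they were 0.62 for mutant B with control C, 0.63 for mutant C with control A and -0.63 for mutant B with control A. The other cross-letter values there lay between -0.03 and 0.05. In the U18A pair the same-letter correlations were 0.34, -0.0018 and 0.27. There mutant libraries A and C correlated best with the control of their own letter and B did not, so pairing by letter was not settled. With the replicate block the genes called were 424 in the U13A pair, 1701 in the U18A pair, 763 for the difference and 3361 between the control strains, and the members called were 0, 1, 0 and 4. With all 12 libraries in 1 fit 1131 genes were called in the U13A pair. Scaling by total counts alone gave 838 calls there, 368 higher and 470 lower (43.9% higher, against 54.4% with TMM). The members called for the difference were 2 with DESeq2 and 0 with total counts alone, no filter, the replicate block, no robust estimation or thinned libraries. Leaving out 1 library gave 295 to 849 genes in the U13A pair (295 without let7_U13A A, 354 without control_for_U13A B), 917 to 1529 in the U18A pair (917 without let7_U18A B), 542 to 775 for the difference and 2339 to 3584 between the control strains; members called were 0 to 0, 0 to 1, 0 to 1 and 3 to 5. Directions turned, with no call, for glh-2 in the U13A pair (-0.11 to 0.024 without 1 library), ifet-1 there (-0.080 to 0.019), inx-8 there (-0.0054 with total counts alone, -0.11 to 0.17 without 1 library) and between the control strains (-0.17 to 0.039), gls-1 for the difference (0.0093 with no filter, -0.072 to 0.021 without 1 library), egg-1 for the difference (-0.030 to 0.44), and the ratio of members to germ cell markers in the U13A pair (difference -0.041 to 0.076). The other directions of the members and of the called list genes that were refitted held. Not refitted were edc-3, cgh-1, glh-3, pgl-2, the oocyte markers other than oma-2, cbd-1 and egg-1, and the genes nearest to each member other than cey-2. The replicate block also ended the calls of patr-1 and sqst-1 in the U13A pair (adjusted p = 0.111 and 0.103), of meg-4 in the U18A pair (adjusted p = 0.0631) and of pgl-3 for the difference (adjusted p = 0.0573). The causes of the changes were not tested. Each member had at least 1236 counts in every library.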
